A study of Homo sapiens with 21 samples.

Results

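HT1376 bladder carcinoma xenografts given MAK683 were compared here with HT1376 xenografts given CPI-0209. The 3 libraries labelled MAK683 and the 3 labelled CPI-0209 were taken by their treatment labels, which gave 6 of the 21 libraries of the series, and 3 vehicle libraries gave the starting level of each gene. HT1376 is a human cell line of bladder carcinoma. Its cells were grown under the skin of the flank of female CB17 SCID mice, a strain that lacks mature T and B cells but keeps its other blood and stromal cells. Compounds were given by mouth at 75 mg/kg once a day, and tumours were taken 1 hour after dosing on day 15. The mice were 6 to 8 weeks old at the start. All 3 groups therefore shared the cell line, the host and the sampling time, and differed by label only in treatment with MAK683, CPI-0209 or vehicle. The doses matched in mass per body weight. Exposure to the drugs was not analysed here. HT1376 is a single line, and the labels do not say that the 3 libraries of a group came from separate animals, so each p-value here reflects library-to-library spread, which may be technical.

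Polycomb repressive complex 2 (PRC2) puts methyl groups on lysine 27 of histone H3 and keeps developmental and lineage genes silent. EZH2 is its main catalytic subunit, EED reads the methylated histone and is needed for full activity, and SUZ12 holds the complex together. CPI-0209 acts on EZH2. The series groups all its compounds as EZH2 inhibitors, whereas MAK683 is known to bind EED, so the comparison sets a drug on the reader subunit beside a drug on the catalytic subunit. In epithelial tumours PRC2 is known to hold down genes of antigen presentation and chemokines. The urothelium also carries a choice between luminal, basal and squamous programmes, and basal bladder tumours express many keratins of stratified epithelium.

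The deposited values were raw read counts per gene on the hg38 assembly. Totals were 15890457, 20590186 and 18145699 counts in the MAK683 libraries, 16819167, 16583137 and 9725690 in the CPI-0209 libraries, and 22371908 to 25059827 in the vehicle libraries. Levels are given below as CPM, that is, counts scaled by TMM-adjusted library size to a common depth of 1e6, and 3 counts corresponded to 0.308 CPM in the shallowest library, CPI-0209 library 3. That library also stood apart by its skeletal muscle markers, which summed to 2680 CPM there, 765 and 611 CPM in the other CPI-0209 libraries, 633 to 705 CPM in MAK683 and 668 to 759 CPM in vehicle. Principal components were computed over all 21 libraries of the series, and the first held 54.4% of the variance among them. Along it the MAK683 libraries lay at 44.29, 21.96 and 22.86 and the CPI-0209 libraries at 79.06, 102.17 and 116.55. The vehicle libraries lay at -63.43, -67.47 and -66.01. MAK683 tumours thus lay between CPI-0209 and vehicle tumours on that axis, with no overlap.

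**Figure D1:**
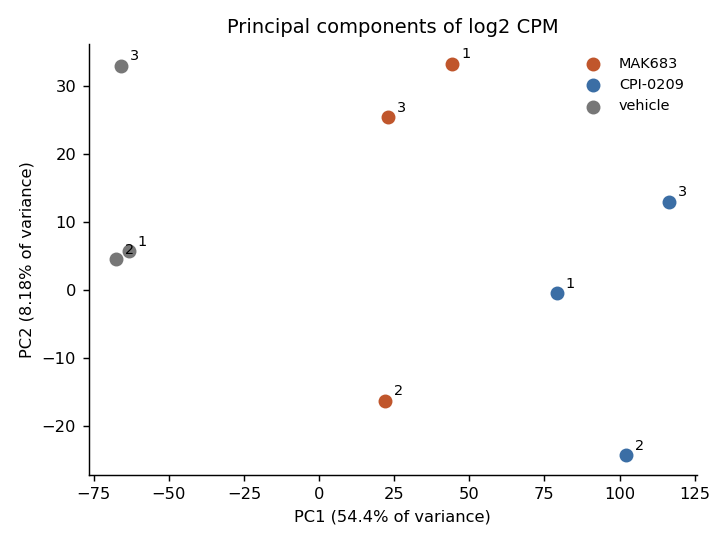
First and second principal components of log2 CPM, computed over all 21 libraries of the series. The 9 libraries shown are numbered by library within each treatment (MAK683, CPI-0209, vehicle). On the first component (54.4% of variance) the MAK683 libraries sit at 21.96 to 44.29, between CPI-0209 at 79.06 to 116.55 and vehicle at -67.47 to -63.43, and the second component (8.18%) does not separate the treatments.

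MAK683 tumours carried lower RNA of many inflammatory and antigen presentation genes, and of some developmental genes, than CPI-0209 tumours. RNA of keratins, cornified envelope genes, cholesterol synthesis genes and hypoxia genes was higher with MAK683. Among 21958 genes tested, 885 were higher with MAK683 (4.03%) and 1108 were lower (5.05%) at an adjusted p under 0.05, which is the meaning of "called" below (edgeR quasi-likelihood test, two-sided, Benjamini-Hochberg adjustment). Differences downward were the larger ones. The median log2 fold change was 0.68 among genes called higher and -1.46 among genes called lower, and a fitted change of at least 2-fold was reached by 213 of the 885 genes and by 837 of the 1108. Among all genes the median log2 fold change was -0.00. The shares of 4.03% higher and 5.05% lower are the background for every list count between compounds below. The split depended on scaling: upper-quartile scaling gave 606 higher and 1502 lower, so that 28.7% of calls were higher in place of 44.4%, and it moved the median of all genes by -0.09.

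The number of calls also rested on single libraries. Leaving out MAK683 library 3 left 295 higher and 390 lower, leaving out CPI-0209 library 2 left 338 and 603, and leaving out CPI-0209 library 3 left 398 and 535. Without MAK683 library 1 there were 572 higher and 1124 lower, and without MAK683 library 2 there were 813 and 596.

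Against vehicle, both compounds had more genes higher than lower. MAK683 tumours had 2279 genes higher (10.4%) and 1136 lower (5.17%) than vehicle, and CPI-0209 tumours had 4888 higher (22.3%) and 4129 lower (18.8%). These comparisons share the vehicle libraries, so their values are set side by side without a test of likeness. No gene was called in opposite directions against vehicle in the 2 compounds. The shares of all genes given here are the background for the list counts against vehicle below.

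**Figure D2:**
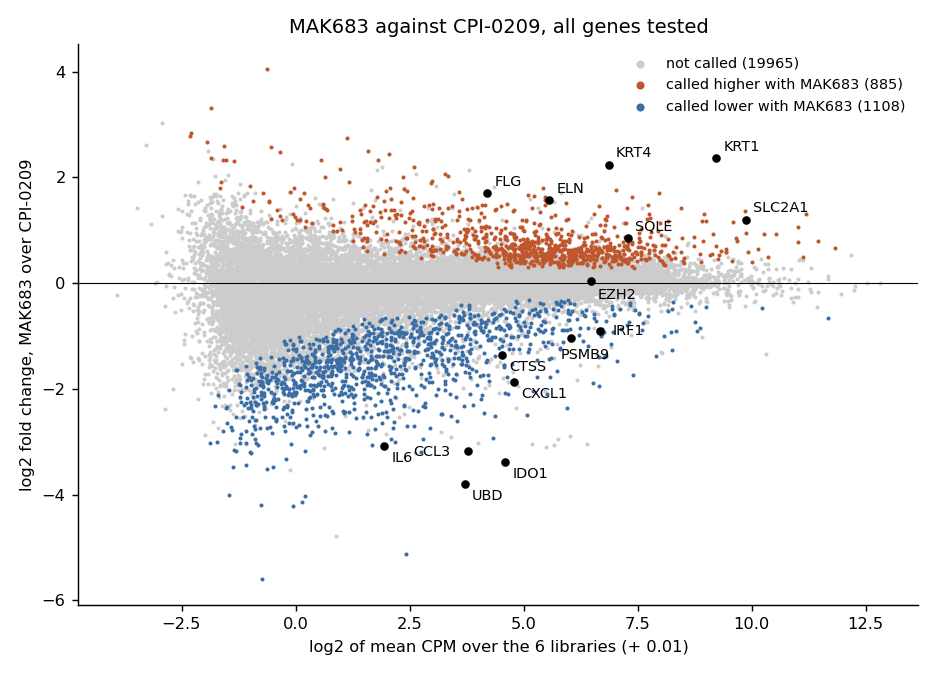
Log2 fold change of MAK683 over CPI-0209 for each gene tested, against the log2 of its mean CPM over the 6 libraries. Orange points are the 885 genes called higher with MAK683, blue points the 1108 called lower, and black points are genes named in the text. Blue points reach further from 0 than orange ones, with UBD at -3.79 and KRT1 at 2.37.

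RNA of the targeted complex itself gave no call: none of 6 PRC2 core subunits passed the test. EZH2 RNA was 91.3, 85 and 94.5 CPM in MAK683 tumours, 84.6, 79.5 and 99.1 CPM in CPI-0209 tumours, and 72.7, 71.4 and 73.6 CPM in vehicle tumours. The 2 compound groups overlapped, and both lay above all vehicle libraries. The log2 fold change between compounds was 0.04 with a 95% interval of -0.17 to 0.25 (adjusted p = 0.845), an interval that leaves room only for small differences in EZH2 RNA. EED RNA was 48.5, 39.9 and 43.1 CPM with MAK683, 50.1, 47.5 and 67 CPM with CPI-0209, and 38.1, 37.7 and 35.4 CPM with vehicle, a log2 fold change of -0.32 between compounds (interval -0.59 to -0.05, adjusted p = 0.128). For EZH1, the alternative catalytic subunit, the log2 fold change was 0.11 (adjusted p = 0.603), and for SUZ12 it was 0.19 (adjusted p = 0.584).

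Among 9 accessory subunits tested, 1 was higher and 1 lower. AEBP2, which helps the complex bind nucleosomes, had a log2 fold change of 0.48 between compounds (adjusted p = 0.0445). It averaged 32.4 CPM with MAK683, 23.4 CPM with CPI-0209 and 43.7 CPM with vehicle, and was called lower than vehicle with either compound. CXorf67, also called EZHIP and known as an inhibitor of PRC2, was at 6.37, 5.82 and 5.49 CPM in MAK683 tumours, 9.48, 12.5 and 9.94 CPM in CPI-0209 tumours and 0.996, 1.72 and 1.3 CPM in vehicle tumours (log2 fold change -0.86, adjusted p = 0.044). Its RNA was thus well above vehicle with either compound and highest with CPI-0209. The AEBP2 call was lost without MAK683 library 1 or 3 or CPI-0209 library 1 or 2, and also with the other scalings. The CXorf67 call was lost without any of the MAK683 libraries or CPI-0209 library 2 or 3. Of 17 alternatives, the AEBP2 call held in 6 and the CXorf67 call in 8.

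Of 29 PRC1 subunits, 8 CDK inhibitors and 25 stress and unfolded protein response genes, none was called in either direction. SWI/SNF subunits had 1 call among 25 tested, SMARCD3, a subunit of muscle and neural forms of the complex, which was lost without MAK683 library 2 or 3 or CPI-0209 library 3. The p53 targets had 1 among 27, GDF15, a stress-induced cytokine, which was lost without MAK683 library 2 or 3 or CPI-0209 library 2. Both were lower with MAK683 (log2 fold changes -1.20 and -0.93).

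Several of the largest single differences were immune and interferon genes that stood further above vehicle with CPI-0209 than with MAK683. UBD encodes a ubiquitin-like protein induced by interferon gamma and TNF, and lies on chromosome 6, hg38, 29555515 to 29559925, minus strand. Its RNA was 2.47, 1.47 and 1.39 CPM in MAK683 tumours, 20, 31.8 and 21.4 CPM in CPI-0209 tumours, and 0.0453, 0.168 and 0.14 CPM in vehicle tumours. The 3 groups formed 3 separate levels, MAK683 in the middle. The log2 fold change between compounds was -3.79 ± 0.38 (SE), with an adjusted p of 2.8e-05.

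IDO1, the interferon-induced enzyme that breaks down tryptophan, lies on chromosome 8. It was at 5.32, 4.45 and 3 CPM with MAK683, 35.6, 54.2 and 42.7 CPM with CPI-0209, and 0.634, 0.587 and 0.466 CPM with vehicle (log2 fold change between compounds -3.38 ± 0.39, adjusted p = 0.000156). Again no library of one group reached the next. IL2RA, the alpha chain of the interleukin 2 receptor, was at 0.185, 0.0489 and 0.0555 CPM with MAK683, 1.23, 2.59 and 1.62 CPM with CPI-0209, and 0, 0 and 0.0466 CPM with vehicle. OR2I1P, an olfactory receptor gene beside the HLA genes, lies close to UBD, at 29553219 to 29554166 on chromosome 6, plus strand. Whether reads of UBD RNA were counted in it was not tested. OR2I1P was at 0.309, 0.391 and 0.166 CPM with MAK683, 8.53, 12.9 and 9.65 CPM with CPI-0209, and at most 0.0905 CPM with vehicle. IL2RA had 5 counts in all MAK683 libraries together and 1 in vehicle, too few to order the libraries of these groups. For OR2I1P, with 16 and 4 counts, every MAK683 library lay above every vehicle library. Neither gene was called between MAK683 and vehicle. The log2 fold changes over vehicle were 2.23 for IL2RA (95% interval -0.52 to 4.99, adjusted p = 0.3) and 2.19 for OR2I1P (-0.10 to 4.48, adjusted p = 0.207).

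The other genes among the 12 protein-coding ones with the largest drops included CLEC4E, a macrophage receptor, with 1 count in all MAK683 libraries together and 54 in CPI-0209, a ratio of 0.0155 with a 95% counting interval of 0.000386 to 0.0902. MUC13, a membrane mucin, was at 0.124, 0.147 and 0.0555 CPM with MAK683, 1, 2.36 and 2.87 CPM with CPI-0209, and 0.14 to 0.252 CPM with vehicle. Its MAK683 libraries overlapped vehicle. In this set THBS4, a matrix protein of tendon and muscle, and MYH6, a heart muscle myosin, rested on few libraries: THBS4 was at 29.7 CPM in CPI-0209 library 3 against 4.01 and 2.7 CPM in the other CPI-0209 libraries, and its call was lost without that library. The MYH6 call was lost without CPI-0209 library 2, where the gene was at 4.54 CPM against 0.334 and 1.62 CPM.

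Many chemokines and cytokines were lower with MAK683. Of 56 tested genes of the list, 29 were lower with MAK683 and 1 was higher, against 5.05% and 4.03% of all genes. The list's median log2 fold change was -1.23, against -0.00 for all genes. In 36 of the 56 every MAK683 library lay below every CPI-0209 library, which held for 14.1% of all genes, and in 6 every MAK683 library lay above, which held for 12.7% of all genes. Against vehicle, 33 of the 56 were higher with MAK683 and 43 with CPI-0209, with median log2 fold changes of 1.55 and 2.90.

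CXCL1 is a neutrophil chemokine. Its RNA was 15.1, 9.83 and 10.7 CPM with MAK683, 36.1, 50.9 and 42.5 CPM with CPI-0209, and 1.22, 0.587 and 1.02 CPM with vehicle. MAK683 lay well above vehicle, and CPI-0209 higher still (log2 fold change between compounds -1.87 ± 0.28, adjusted p = 0.000548). IL6, the acute phase cytokine, was at 1.11, 0.783 and 0.555 CPM with MAK683, 5.57, 8.85 and 6.21 CPM with CPI-0209, and 0.0453, 0.0839 and 0.14 CPM with vehicle (-3.08 ± 0.39, adjusted p = 0.000293). CCL3, a monocyte chemokine with near-identical gene copies, was at 4.2, 1.96 and 2.11 CPM with MAK683, 14.5, 36 and 23.3 CPM with CPI-0209, and 0.181, 0.042 and 0.14 CPM with vehicle. In each of these genes the 3 groups stood apart in the same order. CSF3, the granulocyte growth factor, had a log2 fold change of -3.07 ± 0.46, IL24 of -1.95 ± 0.31, and IL11, an IL6 family cytokine, of -1.43 ± 0.21. CXCL10, the chemokine most used as a sign of interferon gamma signalling and named here after its values were seen, was at 27.3, 16.8 and 16.6 CPM with MAK683, 97.2, 118 and 95.9 CPM with CPI-0209, and 0.745 to 0.923 CPM with vehicle (-2.36 ± 0.36, adjusted p = 0.00088).

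The single cytokine list member that was higher with MAK683 was IL1RN, which encodes the antagonist of the interleukin 1 receptor. It was at 49.6, 72.1 and 75.1 CPM with MAK683, 27.6, 25.5 and 17.2 CPM with CPI-0209, and 49, 57.8 and 53.4 CPM with vehicle (log2 fold change 1.47 ± 0.24, adjusted p = 0.00109). MAK683 libraries thus overlapped vehicle, and CPI-0209 libraries lay below both. Leaving out any 1 library left 21 to 32 cytokine genes lower with MAK683.

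Antigen presentation moved the same way. In the MHC class II list, 13 of 17 genes were lower with MAK683 and none was higher, with a median log2 fold change of -1.24. Class II RNA summed to 521 to 784 CPM in MAK683 tumours, 1092 to 1886 CPM in CPI-0209 tumours and 41.8 to 70.5 CPM in vehicle tumours. Both compounds therefore carried most of the list far above vehicle, with 14 of 17 higher for MAK683 and 16 of 17 for CPI-0209. CTSS, the protease that trims the invariant chain, was at 15.5, 10.8 and 12.4 CPM with MAK683, 31.2, 37.3 and 30.8 CPM with CPI-0209, and 6.7, 10.3 and 8.15 CPM with vehicle (log2 fold change between compounds -1.36 ± 0.22, adjusted p = 0.00095). Its MAK683 libraries all lay above vehicle, against which CTSS was not called (adjusted p = 0.0708).

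HLA-DMB, which helps load peptides, was at 6.68, 4.55 and 4.88 CPM with MAK683, 12.2, 17.8 and 14.4 CPM with CPI-0209, and 0.0905, 0.629 and 0.186 CPM with vehicle (-1.47 ± 0.35, adjusted p = 0.0122). CIITA, which switches on class II genes, had a log2 fold change of -0.90 ± 0.27 (adjusted p = 0.0373). Without MAK683 library 2, MAK683 library 3 or CPI-0209 library 2 neither gene was called, and CIITA was also lost without CPI-0209 library 3. CD74, the invariant chain and the member with the highest CPM of the class II list, was at 380, 259 and 315 CPM with MAK683, 494, 864 and 559 CPM with CPI-0209, and 18, 32.1 and 15.4 CPM with vehicle. Its compound groups did not overlap, yet it missed the threshold (-1.01, 95% interval -1.82 to -0.19, adjusted p = 0.113), as did HLA-DRA (-1.21, adjusted p = 0.0717). The class II count fell to 3 without MAK683 library 2, without MAK683 library 3 or without CPI-0209 library 2, and to 7 without CPI-0209 library 3 or with the skeletal muscle marker level as a covariate. The HLA class II chains have near-identical copies, so reads may be split between them.

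In the MHC class I list, 10 of 22 genes were lower with MAK683, none was higher, and the median log2 fold change was -0.41. PSMB9, an interferon-induced subunit of the immunoproteasome, was at 43.8, 50.1 and 36.3 CPM with MAK683, 80.2, 105 and 80.4 CPM with CPI-0209, and 27.5, 28.5 and 21.8 CPM with vehicle (-1.03 ± 0.14, adjusted p = 0.000421). PSMB8, its partner subunit, had a log2 fold change of -0.68 ± 0.11, with no overlap between the groups. NLRC5, the activator of class I genes, was at 24.1, 20.5 and 23.1 CPM with MAK683, 42.1, 48 and 45 CPM with CPI-0209, and 12.2 to 13 CPM with vehicle. HLA-B, a class I heavy chain, was at 2743, 2666 and 2183 CPM with MAK683, 3285, 5067 and 3608 CPM with CPI-0209, and 1187, 1533 and 991 CPM with vehicle (-0.66 ± 0.20, adjusted p = 0.0418). Its groups stood apart, but the call was lost without any 1 MAK683 library or without CPI-0209 library 2 or 3. Without CPI-0209 library 2, 6 class I genes were lower.

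Interferon-stimulated genes differed in part only: 12 of 58 were lower with MAK683 and none was higher, with a median log2 fold change of -0.24. IRF1, a transcription factor of the interferon gamma response, was at 81.4, 64.9 and 65.4 CPM with MAK683, 121, 148 and 130 CPM with CPI-0209, and 53, 55.6 and 44.9 CPM with vehicle (-0.91 ± 0.13, adjusted p = 0.000421). ZBP1, a sensor of nucleic acids, was at 1.85, 2.45 and 1.39 CPM with MAK683, 7.36, 12.9 and 9.75 CPM with CPI-0209, and 0.42 to 0.652 CPM with vehicle (-2.39 ± 0.32). GBP5, an interferon gamma-induced GTPase, had a log2 fold change of -1.85 ± 0.32. In all 3 genes MAK683 lay between CPI-0209 and vehicle, with no overlap between groups. PSMB9 overlaps PSMB8 and TAP1, which lie on the other strand. The strand setting of the counting is not given in the sources used here, so reads may be shared there. UBD lies within the span of GABBR1 on the same strand, so reads may be shared there under any strand setting.

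Markers of blood and stromal cells are given beside these lists because the tumours contain host tissue. Of 18 tested macrophage and granulocyte markers, 6 were lower with MAK683 and none higher, with a median log2 fold change of -0.74, and among them LAPTM5, a lysosomal protein of blood cells, had a log2 fold change of -1.16 ± 0.18. The 6 became 3 without MAK683 library 2, 2 without MAK683 library 3 and 2 without CPI-0209 library 3. Their summed level overlapped, at 3584 to 4875 CPM in MAK683, 3976 to 4391 CPM in CPI-0209 and 2713 to 3941 CPM in vehicle, a sum that S100A9, at means of 2452, 2399 and 1918 CPM, dominates. Their list level, which weights members equally, did not overlap, at 2.85, 2.78 and 2.73 in MAK683, 3.10, 3.26 and 3.41 in CPI-0209, and 2.28 to 2.40 in vehicle (mean log2(CPM + 0.5)). The complement gene C1QA averaged 0.0391 CPM in MAK683, 0.102 CPM in CPI-0209 and 0 CPM in vehicle, and TYROBP averaged 0.164, 0.17 and 0 CPM in the same order, so these 2 defining markers were at or near 0. Others were detected in every library and were lower with MAK683 than with CPI-0209: ADGRE1, a macrophage surface receptor, averaged 2.66 CPM in MAK683, 7.76 CPM in CPI-0209 and 0.862 CPM in vehicle. CD163, a macrophage scavenger receptor, averaged 0.575, 1.73 and 0.0752 CPM in that order, and PTPRC, a surface marker of blood cells, averaged 0.277, 1.47 and 0.18 CPM. Lymphocyte markers summed to 6.21 to 7.87 CPM in MAK683, 12 to 15.2 CPM in CPI-0209 and 3.91 to 4.44 CPM in vehicle, with 1 of 8 called lower, CD3E, a call lost without CPI-0209 library 2. MS4A1 was at 0 in MAK683 and in vehicle. The host strain lacks mature T and B cells, and the source of the lymphocyte marker RNA was not tested. The part of blood and stromal cells in the immune gene differences was not tested. In bulk tumours, fewer cells of a type and less RNA per cell cannot be told apart, and whether mouse reads were removed is not given in the sources used here.

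Promoters of 4 genes are shown, 3 from the immune genes lower with MAK683 and 1 from the keratinocyte genes higher with it, so that the motifs counted next can be seen in place. Each is the 250 bases before the start site in RefSeq on GRCh38.p14, 5′ to 3′ on the gene's strand, with motif matches in capitals. CXCL1 is chr4:73869143-73869392, plus strand, and its capitals mark 2 overlapping matches on opposite strands to GGGNNNTTCC, a form of the NF-kB motif. UBD is chr6:29559733-29559982, minus strand, with 1 NF-kB match. CXCL10 is chr4:76023498-76023747, minus strand, with 1 match to GAAANNGAAA, a form of the interferon-stimulated response element (ISRE), and then 1 NF-kB match. FLG, a keratinocyte gene, is chr1:152325240-152325489, minus strand, and its capitals mark the TATA box TATAAA.
CXCL1: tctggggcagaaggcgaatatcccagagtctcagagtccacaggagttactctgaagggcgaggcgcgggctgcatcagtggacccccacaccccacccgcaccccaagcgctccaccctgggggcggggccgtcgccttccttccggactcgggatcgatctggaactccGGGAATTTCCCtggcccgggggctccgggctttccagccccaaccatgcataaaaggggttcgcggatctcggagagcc
UBD: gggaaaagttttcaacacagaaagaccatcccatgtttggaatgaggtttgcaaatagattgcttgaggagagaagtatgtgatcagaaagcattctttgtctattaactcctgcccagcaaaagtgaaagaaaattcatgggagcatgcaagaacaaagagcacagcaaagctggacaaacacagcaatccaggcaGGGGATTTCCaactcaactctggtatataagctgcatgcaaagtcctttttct
CXCL10: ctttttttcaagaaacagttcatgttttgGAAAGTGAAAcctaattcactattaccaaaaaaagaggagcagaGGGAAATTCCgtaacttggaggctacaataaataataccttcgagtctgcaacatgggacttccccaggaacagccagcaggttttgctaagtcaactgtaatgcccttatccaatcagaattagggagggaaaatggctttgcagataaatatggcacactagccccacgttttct
FLG: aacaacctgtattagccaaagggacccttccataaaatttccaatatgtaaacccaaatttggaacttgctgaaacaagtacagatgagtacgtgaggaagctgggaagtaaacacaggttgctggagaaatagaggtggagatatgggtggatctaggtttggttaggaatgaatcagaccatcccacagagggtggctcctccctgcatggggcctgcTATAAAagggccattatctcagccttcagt

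Both strands of 300-base windows (250 bases before the start site to 50 after) were searched. The NF-kB form was found in 6.52% of all 35116 promoters, which include those of genes not tested. Among the 12833 tested genes with an entry the share was 7.48%, and among those called lower it was 8.49%. The form was found in 11 of the 42 tested cytokine genes with an entry (26.2%) and in 10 of the 23 called lower (43.5%). The ISRE form was found in 3.57% of all promoters, in 2.96% of the tested genes and in 7.49% of those called lower. It was found in 25 of 41 interferon-stimulated genes with an entry (61%) and in 5 of the 8 that were lower with MAK683 (62.5%). The share of ISRE matches was thus about the same in the members that were called as in the whole list. The TATA box was found in 11.5% of all promoters, in 6.97% of the tested genes and in 9.1% of those called higher. It was found in 20 of 49 basal and squamous genes (40.8%) and in 8 of the 24 called higher (33.3%). These matches describe letters in a window and say nothing of binding.

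**Figure D3:**
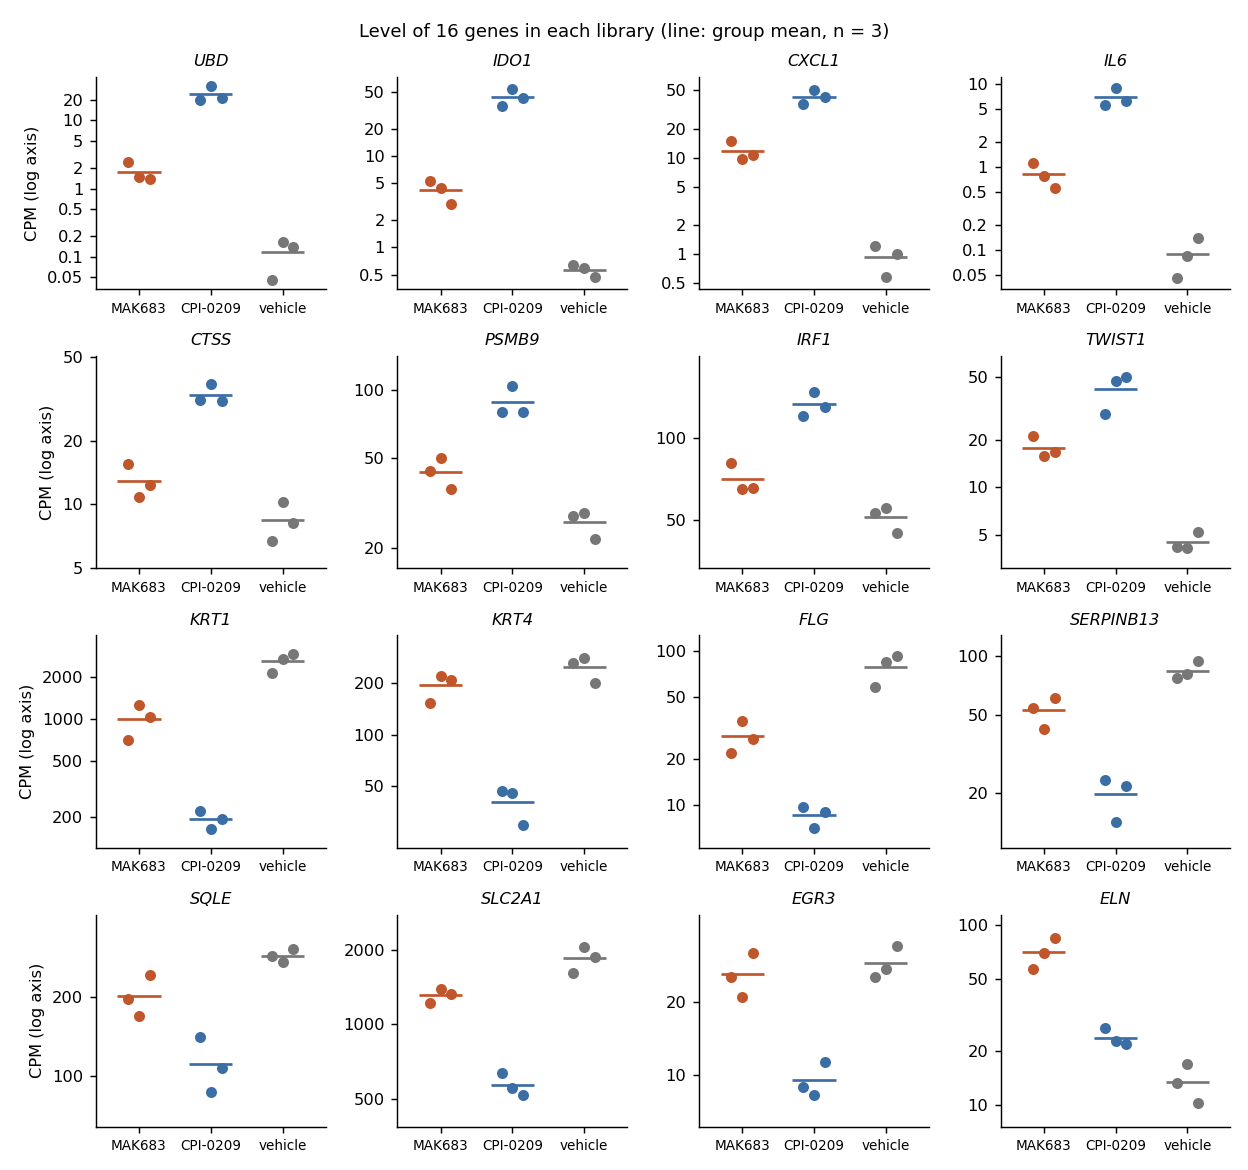
CPM (log axis) of 16 genes in each library of MAK683, CPI-0209 and vehicle, with a line at the group mean (n = 3). The upper 2 rows hold immune and developmental genes, where MAK683 lies between a higher CPI-0209 and a lower vehicle; KRT1, KRT4, FLG, SERPINB13, SQLE, SLC2A1 and EGR3 show CPI-0209 lowest, and ELN shows MAK683 highest.

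Keratinocyte and basal genes made up the main difference in the other direction. Of 69 basal and squamous genes, 35 were higher with MAK683 and 1 was lower, with a median log2 fold change of 0.82. In 54 of the 69 all MAK683 libraries lay above all CPI-0209 libraries, against 12.7% of all genes. Against vehicle, MAK683 tumours had 13 of the 69 lower and 3 higher, and CPI-0209 tumours had 42 lower and 7 higher. Median log2 fold changes against vehicle were -0.08 for MAK683 and -0.94 for CPI-0209. The list level, the mean log2(CPM + 0.5) over members, was 7.21, 7.57 and 7.53 in MAK683 tumours, 6.66, 6.61 and 6.49 in CPI-0209 tumours, and 7.60, 7.73 and 7.67 in vehicle tumours, so MAK683 came close to vehicle without overlapping it.

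KRT1, a keratin of the suprabasal epidermis, lies on chromosome 12, hg38, 52674736 to 52680407, minus strand. Its RNA was 707, 1262 and 1029 CPM with MAK683, 220, 164 and 194 CPM with CPI-0209, and 2116, 2686 and 2908 CPM with vehicle. Both compounds lay below vehicle, CPI-0209 much further (log2 fold change between compounds 2.37 ± 0.34, adjusted p = 0.000548). KRT4, a keratin of wet stratified epithelia, was at 152, 219 and 209 CPM with MAK683, 46.8, 45.5 and 29.7 CPM with CPI-0209, and 261, 279.6 and 201 CPM with vehicle (2.24 ± 0.23, adjusted p = 2.8e-05). KRT4 in MAK683 tumours overlapped vehicle and was not called against it (adjusted p = 0.312).

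FLG encodes filaggrin, which bundles keratin in the cornified layer. It was at 21.9, 35.1 and 27 CPM with MAK683, 9.75, 7.18 and 9.08 CPM with CPI-0209, and 57.9, 85 and 93.1 CPM with vehicle (1.70 ± 0.27, adjusted p = 0.000926). SERPINB13, a protease inhibitor of squamous epithelium, was at 54.7, 42.7 and 61.6 CPM with MAK683, 23.4, 14.3 and 21.8 CPM with CPI-0209, and 78, 81.5 and 94.7 CPM with vehicle. In both genes the order was CPI-0209, MAK683, vehicle, with no overlap. DSG3, a desmosomal cadherin, had a log2 fold change of 1.47 ± 0.22, KRT10, the partner of KRT1, of 1.31 ± 0.23, and LGALS7B, a keratinocyte galectin with a near-identical copy, of 2.07 ± 0.33.

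Basal keratins and their regulator gave calls of differing firmness. KRT5, a basal keratin named after its values were seen, as were KRT14 and TP63, was at 2736, 3900 and 3358 CPM in MAK683 tumours, 1741, 1214 and 1078 CPM in CPI-0209 tumours and 2925, 3078 and 3327 CPM in vehicle tumours. MAK683 and vehicle overlapped, with CPI-0209 below both (log2 fold change 1.31 ± 0.23, adjusted p = 0.00168). The changes were smaller for its partner KRT14 (0.67 ± 0.20, adjusted p = 0.0422) and for TP63, the transcription factor of the basal layer (0.66 ± 0.18, adjusted p = 0.0272). Against the rest of the list, SERPINB2, a protease inhibitor also induced by inflammation, was lower with MAK683 (-0.90 ± 0.27, adjusted p = 0.037). Calls of KRT14, TP63 and SERPINB2 were each lost without MAK683 library 3, CPI-0209 library 2 or CPI-0209 library 3; those of KRT14 and SERPINB2 also without MAK683 library 2, and those of TP63 and SERPINB2 also without MAK683 library 1. The KRT14 call held in 5 of 17 alternatives. KRT17, a basal keratin and the list member with the highest CPM, was not called (0.53, 95% interval 0.12 to 0.95, adjusted p = 0.0971).

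Other leading genes in the upward direction were CDHR1, a protocadherin of photoreceptors, at 5.94, 4.84 and 4.72 CPM with MAK683, 1.67, 0.575 and 0.287 CPM with CPI-0209 and 6.97 to 10.8 CPM with vehicle. VIT, a matrix protein, was at 2.97, 3.52 and 2.89 CPM with MAK683, 0.557, 0.402 and 1.34 CPM with CPI-0209, and 13.2 to 19.4 CPM with vehicle. RDH12, a retinal reductase, had a log2 fold change of 2.01 ± 0.37, and PLA2G3, a secreted phospholipase, of 2.75 ± 0.59. Each of these was lowest with CPI-0209, and none was higher with MAK683 than with vehicle in all libraries. The PLA2G3 call was lost without CPI-0209 library 2.

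The basal count was 20 without MAK683 library 3, 23 without CPI-0209 library 2 and 22 without CPI-0209 library 3. Of 14 tested skin keratinocyte and hair markers, which share members such as KRT1 and FLG with this list, 4 were higher and none lower, with sums of 1294 to 2189 CPM in MAK683, 536 to 581 CPM in CPI-0209 and 3732 to 5078 CPM in vehicle. The cell line and mouse skin can both supply such RNA, and their parts were not tested.

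Luminal genes did not follow one direction. Of 33 tested, 6 were higher and 3 lower with MAK683 (18.2% and 9.09%, against 4.03% and 5.05% of all genes). Their median log2 fold change was 0.03. FGFR3, a growth factor receptor often altered in bladder cancer, was at 111, 122 and 103 CPM with MAK683, 56.4, 42.3 and 60.9 CPM with CPI-0209, and averaged 163 CPM with vehicle (1.08 ± 0.17, adjusted p = 0.00089). PPARG, a luminal transcription factor, rose by 0.65 (adjusted p = 0.0128), a call lost without MAK683 library 2 or CPI-0209 library 2. VSIG2, an immunoglobulin-domain membrane protein, and BAMBI, a decoy receptor of the TGF-beta family, were lower with MAK683, with log2 fold changes of -1.72 and -1.34. KRT8, a keratin of simple epithelium and the luminal member with the highest CPM, had a log2 fold change of -0.22 (adjusted p = 0.416). The 6 higher luminal genes became 3 without MAK683 library 1 or 2, 2 without MAK683 library 3 or CPI-0209 library 3, and 1 without CPI-0209 library 2.

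**Figure D4:**
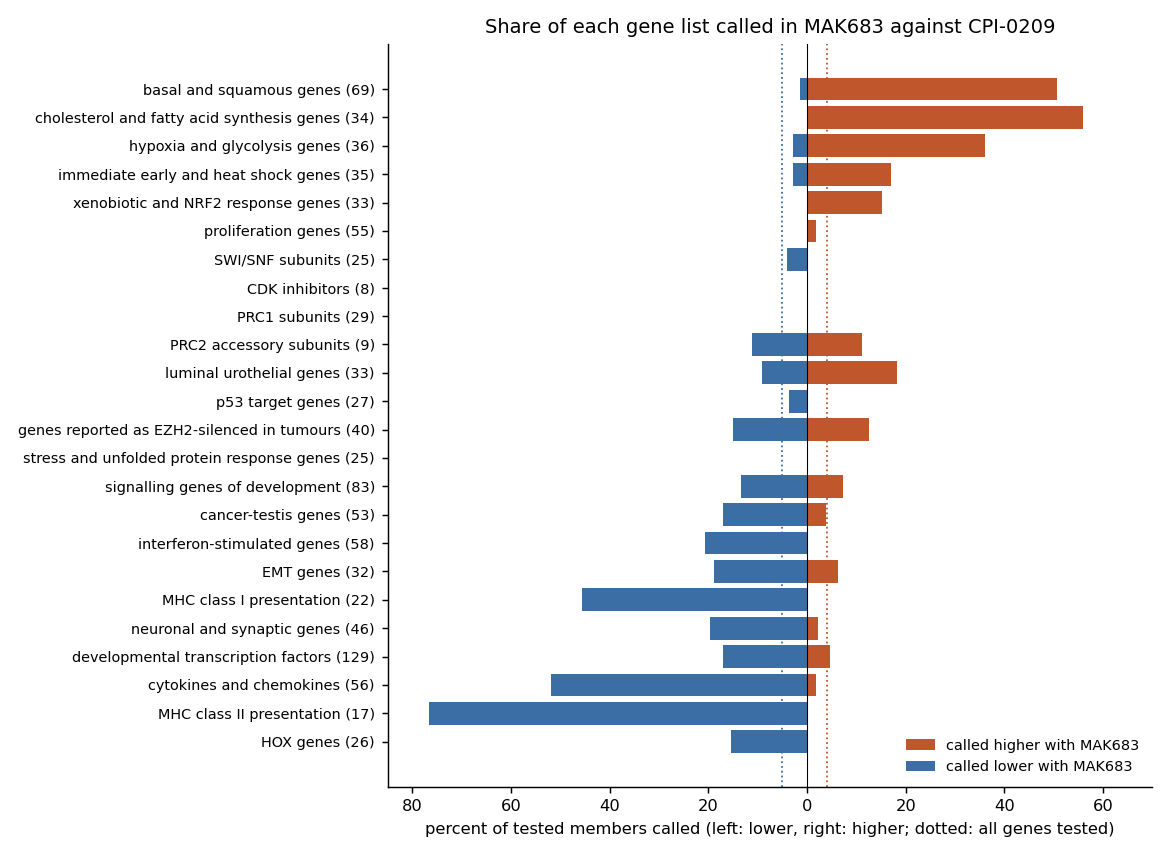
Percent of the tested members of each gene list called higher (right, orange) or lower (left, blue) with MAK683 against CPI-0209, ordered by the list's median log2 fold change, with the number tested in brackets. Dotted lines mark the shares among all genes, 4.03% higher and 5.05% lower; basal, cholesterol and hypoxia genes exceed 36% higher, and MHC class II, cytokine and MHC class I genes exceed 45% lower.

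Many cholesterol and fatty acid synthesis genes tested were higher with MAK683. These enzymes are driven by SREBP transcription factors when cell sterols run low. Of 34 genes, 19 were higher and none lower, with a median log2 fold change of 0.50. With only the 2 compound groups fitted 10 were higher, and none passed a test against a 1.5-fold change. Against vehicle, MAK683 had 7 of the 34 lower and CPI-0209 had 26 lower, and neither had any higher. SQLE, the squalene epoxidase, was at 196, 168 and 241 CPM with MAK683, 140, 86.5 and 107 CPM with CPI-0209, and 284, 270 and 303 CPM with vehicle. MAK683 lay between CPI-0209 and vehicle with no overlap (log2 fold change between compounds 0.86 ± 0.16, adjusted p = 0.00273).

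SCD, the fatty acid desaturase, was at 299, 322 and 393 CPM with MAK683, 227, 145 and 168 CPM with CPI-0209, and 694, 698 and 841 CPM with vehicle (0.91 ± 0.18, adjusted p = 0.00384). Its groups also stood apart, with MAK683 nearer to CPI-0209 than to vehicle in CPM. SREBF2, which encodes the SREBP of cholesterol genes, was also higher with MAK683 (0.68 ± 0.14, adjusted p = 0.00464, named after its values were seen). The count was 7 without MAK683 library 3, 8 without CPI-0209 library 2 and 9 without CPI-0209 library 3. It was 12 with all counts thinned to the depth of the smallest library.

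Hypoxia and glycolysis genes, which the oxygen-sensing HIF factors switch on, were next. Of 36 tested, 13 were higher with MAK683 and 1 was lower (36.1% and 2.78%, against 4.03% and 5.05% of all genes). Their median log2 fold change was 0.44. Against vehicle, MAK683 had 2 of the 36 lower and 3 higher, near the 5.17% and 10.4% of all genes. CPI-0209 had 26 lower and 2 higher against vehicle, beside 18.8% and 22.3% of all genes. SLC2A1, the glucose transporter GLUT1, was at 1214, 1381 and 1324 CPM with MAK683, 635, 552 and 519 CPM with CPI-0209, and 1614, 2051 and 1860 CPM with vehicle (1.20 ± 0.27, adjusted p = 0.00895). No library of one group reached the next, and CPI-0209 was lowest. SLC2A1 and FLG each overlap an annotated antisense gene, and CA9 and KRT10 overlap other genes, so reads may be shared there too.

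CA9, carbonic anhydrase 9, was at 1.92, 2.84 and 2.55 CPM with MAK683, 0.334, 0.517 and 0.669 CPM with CPI-0209, and 4.21, 4.99 and 2.65 CPM with vehicle (2.32 ± 0.53, adjusted p = 0.00966). P4HA1, a prolyl hydroxylase of collagen, had a log2 fold change of 0.84, and BNIP3L, a mitophagy receptor, one of 0.78. LDHA, the lactate dehydrogenase, had one of 0.44 that missed the threshold (adjusted p = 0.0598). CA12 went the other way, being lower with MAK683 (-0.90 ± 0.23), a call lost without MAK683 library 2 or 3 or CPI-0209 library 2 or 3. The count of hypoxia genes was 5 without MAK683 library 3, 4 without CPI-0209 library 2 and 6 without CPI-0209 library 3. Tumour size was not analysed here.

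Immediate early and heat shock genes had 6 of 35 members higher with MAK683 and 1 lower, with a median log2 fold change of 0.27. EGR3, an early response transcription factor, was at 25.5, 21.1 and 31.9 CPM with MAK683, 8.92, 8.28 and 11.4 CPM with CPI-0209, and 25.4, 27.6 and 34.1 CPM with vehicle (1.47 ± 0.31, adjusted p = 0.00591). EGR1 was at 97.8, 95.5 and 93.2 CPM with MAK683, 56.8, 52 and 48.2 CPM with CPI-0209, and 125, 181 and 193 CPM with vehicle. CPI-0209 was thus lowest in both genes, and MAK683 overlapped vehicle in EGR3 but not in EGR1. The 6 became 3 without MAK683 library 1, MAK683 library 3 or CPI-0209 library 3, and 2 without CPI-0209 library 2.

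Of 33 xenobiotic and NRF2 response genes 5 were higher and none lower, TIPARP, a target of the aryl hydrocarbon receptor, with the smallest p among them (0.99, adjusted p = 0.00324). The 5 became 3 without MAK683 library 2, 1 without MAK683 library 3, 2 without CPI-0209 library 2 and 1 without CPI-0209 library 3. Among 55 proliferation genes 1 was called, KIF20A, a mitotic kinesin (0.38, adjusted p = 0.0477). The KIF20A call held in 2 of 17 alternatives. It was lost without MAK683 library 2 or 3 or CPI-0209 library 2 or 3, and also with DESeq2, limma-voom and the other scalings. The proliferation list's median log2 fold change was 0.12.

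Developmental genes, the classic PRC2 targets, were lower with MAK683 in part. Of 129 developmental transcription factors tested, out of 231 on the list, 22 were lower and 6 higher, with a median log2 fold change of -0.57. With the skeletal muscle marker level as a covariate, 12 were lower and 8 higher and the median was -0.22. Against vehicle, 45 were higher with MAK683 and 83 with CPI-0209. TWIST1, a transcription factor of mesoderm and of epithelial-mesenchymal transition, was at 21, 15.8 and 16.6 CPM with MAK683, 29.1, 47.2 and 50.2 CPM with CPI-0209, and 4.16, 4.11 and 5.17 CPM with vehicle (-1.24 ± 0.21, adjusted p = 0.00109). MSX1, a homeobox factor of limb and face, was at 0.742, 0.88 and 0.499 CPM with MAK683, 1.78, 4.6 and 6.4 CPM with CPI-0209, and 0.042 to 0.272 CPM with vehicle (-2.55 ± 0.44, adjusted p = 0.00139). For both genes MAK683 stood between vehicle and CPI-0209 without overlap.

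SOX7, an endoderm and vessel factor, was among the 6 that went up: 37, 33.5 and 39.2 CPM with MAK683, 22.2, 17.6 and 17.9 CPM with CPI-0209, and 33 to 36.7 CPM with vehicle (0.92 ± 0.13, adjusted p = 0.000421). Its MAK683 libraries overlapped vehicle. The count of developmental factors lower with MAK683 was 12 without MAK683 library 2, 9 without MAK683 library 3, 13 without CPI-0209 library 2 and 13 without CPI-0209 library 3. The 6 higher became 1, 2 and 2 without MAK683 library 3, CPI-0209 library 2 and CPI-0209 library 3.

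HOX genes gave less certain differences. Of 26 tested, out of 39, 4 were lower with MAK683 (HOXA3, HOXA5, HOXB3 and HOXC11), with a median log2 fold change of -1.42. HOXA3 overlaps HOXA5 in the genome and HOXB3 overlaps other HOXB genes, all on the same strand, so reads may be shared between them. HOXB3 was at 1.67, 0.293 and 0.444 CPM with MAK683, 1.73, 2.36 and 5.54 CPM with CPI-0209, and 0.543, 0.252 and 0.466 CPM with vehicle. The highest MAK683 library came close to the lowest CPI-0209 library. All 4 calls were lost without MAK683 library 2, without MAK683 library 3 or without CPI-0209 library 3, and 1 HOX call was left without CPI-0209 library 2. Without MAK683 library 1 there were 9 HOX calls, and without CPI-0209 library 1 there were 10. The HOX level was highest in CPI-0209 library 3, at a mean log2(CPM + 0.5) of 2.05, where skeletal muscle markers were at 5.49. Within MAK683 the 2 lists differed in order. Library 1 had HOX at 1.00 and muscle at 2.53, and library 3 had HOX at 0.36 and muscle at 3.23. With the muscle marker level as a covariate none of the 4 was called and the median was -0.44. The part of muscle or fibroblasts in the HOX differences was not tested.

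Among 83 signalling genes of development, 11 were lower and 6 higher with MAK683 (13.3% and 7.23%, against 5.05% and 4.03% of all genes). NTN1, the axon guidance cue netrin 1, was at 5.69, 3.72 and 3.55 CPM with MAK683, 13.9, 27.6 and 23.6 CPM with CPI-0209, and 0.317, 0.252 and 0.186 CPM with vehicle (-2.33 ± 0.42, adjusted p = 0.00196). Its receptor UNC5B went the other way, at 75.1, 83.1 and 86.3 CPM with MAK683, 48, 39.5 and 51.1 CPM with CPI-0209, and 73.5, 76 and 85.1 CPM with vehicle (0.82 ± 0.11, adjusted p = 0.000395). The ligand rose above vehicle with both compounds. The receptor was lower than vehicle with CPI-0209 (adjusted p = 1.53e-05), while MAK683 overlapped vehicle (adjusted p = 0.793). JAG2, a Notch ligand, had a log2 fold change of 0.95 ± 0.17 between compounds. The 11 lower signalling genes became 4 without MAK683 library 3, 5 without CPI-0209 library 2 and 5 without CPI-0209 library 3.

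Neuronal and synaptic genes had 9 of 46 lower with MAK683 and 1 higher (19.6% and 2.17%, against 5.05% and 4.03% of all genes). NCAM1, a neural adhesion molecule, was at 4.76, 2.45 and 3.05 CPM with MAK683, 9.03, 13.6 and 14.6 CPM with CPI-0209, and 1.21 to 1.36 CPM with vehicle (-1.86 ± 0.30). UCHL1, a neuronal deubiquitinase, had a log2 fold change of -1.32 ± 0.23. Cancer-testis genes, which are normally confined to germ cells and silenced elsewhere, had 9 of 53 lower and 2 higher (17% and 3.77%). PAGE1 was at 14.1, 19.4 and 14.5 CPM with MAK683, 28.7, 46.7 and 32.3 CPM with CPI-0209, and 2.47 to 3.08 CPM with vehicle (-1.16 ± 0.19, adjusted p = 0.000926). In NCAM1 and PAGE1 the groups did not overlap. The 9 lower cancer-testis genes became 5 without MAK683 library 3 and 4 without CPI-0209 library 2.

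Of 40 tested members of a list of reported EZH2-silenced tumour genes, 6 were lower and 5 higher with MAK683. These were 15% and 12.5%, against 5.05% and 4.03% of all genes, and the list's median log2 fold change was -0.00. IL24, a cytokine that list shares with the cytokine list, and CDH4, a cadherin of retina and kidney (-1.94, adjusted p = 0.003), were lower. RARRES1, a retinoid-responsive gene, was higher (0.98, adjusted p = 0.00584). The 6 lower became 3 without MAK683 library 2 or CPI-0209 library 3 and 2 without MAK683 library 3. The 5 higher became 3 without MAK683 library 1 or 2, 2 without MAK683 library 3 or CPI-0209 library 3, and 1 without CPI-0209 library 2.

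The EMT list had 6 of 32 lower and 2 higher (18.8% and 6.25%, against 5.05% and 4.03% of all genes). LOXL2, a collagen cross-linking oxidase, was higher with MAK683 (1.07, adjusted p = 0.00154), and ESRP1, an epithelial splicing factor, was also higher (0.46, adjusted p = 0.0138), a call lost without MAK683 library 3 or CPI-0209 library 2. The 6 lower became 2 without MAK683 library 2 or 3 and 3 without CPI-0209 library 3. With the muscle marker level as a covariate 2 were lower and 4 higher, and the list's median log2 fold change, -0.30 without it, was 0.10.

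Stromal markers are set beside the developmental and EMT lists because fibroblasts and muscle express many of the same genes. Of 21 fibroblast and matrix markers, 6 were lower and 1 higher with MAK683, with a median log2 fold change of -0.96 and sums of 1832 to 3084 CPM in MAK683, 2317 to 5331 CPM in CPI-0209 and 1931 to 2764 CPM in vehicle. The 6 became 2 without MAK683 library 2, CPI-0209 library 2 or CPI-0209 library 3, and 1 without MAK683 library 3. THY1, a marker of fibroblasts and neurons, was at 2.66, 2.84 and 2.83 CPM with MAK683, 7.19, 22.5 and 16.5 CPM with CPI-0209, and 0.14 to 0.272 CPM with vehicle (-2.47 ± 0.35, adjusted p = 0.000441). COL1A1, the main chain of type I collagen, was at 1292, 324 and 549.6 CPM with MAK683 and 983, 1436 and 3057 CPM with CPI-0209, so the groups overlapped and the gene was not called (adjusted p = 0.176). Skeletal muscle markers had 3 of 25 lower and 1 higher, with a median log2 fold change of -2.55 that became -0.86 without CPI-0209 library 3, where none was called.

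Endothelial markers summed to 109 to 130.3 CPM in MAK683, 128 to 165 CPM in CPI-0209 and 49.5 to 52 CPM in vehicle, and 1 of 13, the tight junction gene CLDN5, was lower with MAK683 (-2.08 ± 0.41, adjusted p = 0.0033). Smooth muscle and pericyte markers summed to 405 to 470.3 CPM, 361 to 511 CPM and 438 to 514 CPM in MAK683, CPI-0209 and vehicle, with 2 of 12 higher and 1 lower. None of these 12 was called without MAK683 library 3 or CPI-0209 library 3, 1 was higher without MAK683 library 1 or CPI-0209 library 1, and none was lower without MAK683 library 2. Adipocyte markers summed to 33 to 34.5 CPM, 43 to 49.9 CPM and 9.73 to 10.5 CPM in that order with none of 4 called. Red blood cell markers had none of 3 called. Of 7 nerve markers 2 were higher, against 1 without MAK683 library 2 or CPI-0209 library 1 and 0 without any one of the remaining 4 libraries of the compound groups. SOX10, which defines Schwann cells, was at 0 in all libraries. The part of any of these tissues in the differences was not tested.

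**Figure D5:**
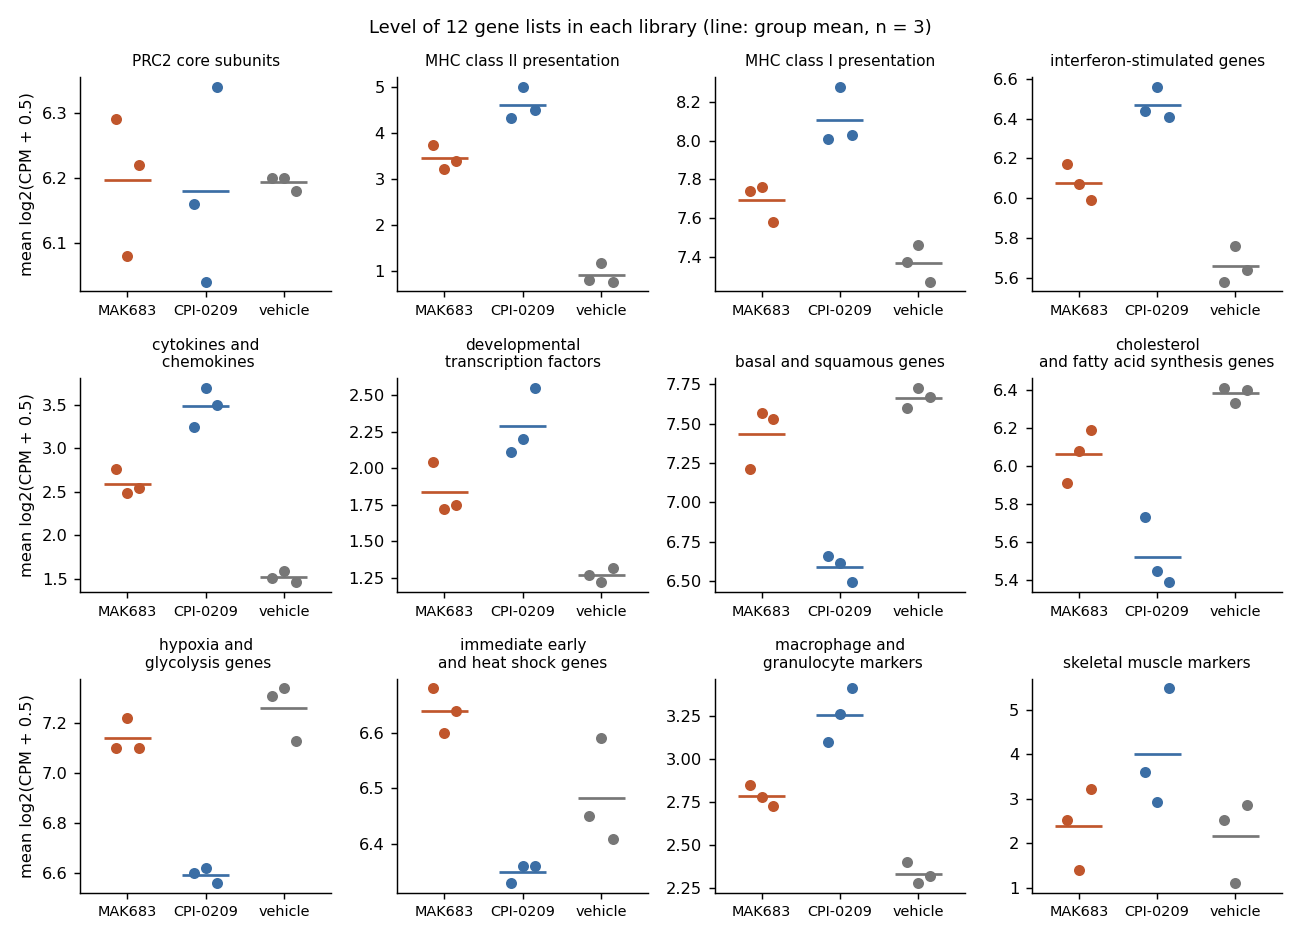
Mean log2(CPM + 0.5) over the tested members of 12 gene lists in each library of MAK683, CPI-0209 and vehicle, with a line at the group mean (n = 3); each panel has its own vertical scale. PRC2 core subunits overlap between groups, MHC class II runs from 3.21 to 3.74 in MAK683 against 4.33 to 5.00 in CPI-0209, basal genes from 7.21 to 7.57 against 6.49 to 6.66, and skeletal muscle markers reach 5.49 in CPI-0209 library 3.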

How the data were processed

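The values were raw read counts per Ensembl gene, deposited by the authors as 1 table per library. Per the submitters' processing notes, STAR 2.7.3a, RSEM 1.3.1 and hg38 were used. Which program counted reads, whether it used strand, and how mouse reads were handled is not given in the sources used here. Of 57500 genes, 56898 were matched to a GENCODE 29 symbol.

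Samples were grouped by treatment label. They were tested with edgeR 4.0.16 under R 4.3.3 in 1 fit of all 21 libraries, a term per group in 7 groups of 3, so that all share 1 estimate of the spread (TMM scaling, filterByExpr, robust quasi-likelihood test, 14 residual degrees of freedom, common biological coefficient of variation 0.163). Genes with an adjusted p under 0.05, two-sided, were called. The SE is the log2 fold change divided by the square root of F. CPM are counts over TMM-scaled library sizes. No 2 libraries of a group were near-identical (chi-square per gene at least 6.92). Intervals cover counting error only where they are called counting intervals.

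The members and lists were chosen with earlier results of these data known. Genes were named by a rule: the 4 PRC2 core genes, the 12 protein-coding genes with the largest change each way among those called, at 1 CPM or more and with groups apart, and up to 4 members per list with the smallest p, plus the one with the highest CPM. Genes that the text says were named after their values were seen, and CIITA, HLA-DRA, IL1RN, SERPINB2 and CA12, fall outside it. Lists were described by counts and medians, without set tests. Scripts were tested on simulated counts. Alternatives used DESeq2 1.42.0, limma 3.58.1, other scalings and filters, each library left out, and a muscle covariate. Tables and figures were made with Python 3.11.15 and matplotlib 3.10.9. Some results are not reported here.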

Additional observations from a re-analysis of the deposited data

How the results depend on the processing

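Without the low-count filter 1365 genes were higher and 1876 lower with MAK683, against 885 and 1108. Tested against a 1.5-fold change with glmTreat, 55 were higher and 184 lower, with 1320 called for MAK683 against vehicle and 4302 for CPI-0209 against vehicle. A skeletal muscle covariate gave 1496 higher and 851 lower. Thinning all counts to the smallest library, chosen after seeing the data, gave 486 and 555, and 1983 for MAK683 against vehicle. Leaving out 1 library gave 295 to 832 higher and 390 to 1465 lower. The cause of these shifts was not tested. DESeq2 gave 869 and 1381, and limma-voom 788 and 1124. None of the named genes changed sign while called under the alternatives run.

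With replicate number as a replicate block 765 genes were higher and 969 lower, 1702 of the 1993 calls were kept, and the counts against vehicle were 3141 for MAK683 and 8609 for CPI-0209. The labels do not say whether the numbers pair the samples, and 3 libraries a side are too few to settle it. Correlations of deviations between same-numbered MAK683 and CPI-0209 libraries were -0.133, 0.326 and -0.0704. Between differently numbered ones they ran from -0.268 to 0.345. CPI-0209 library 3 had 9725690 counts, which limits genes under about 0.308 CPM there. Of the 21958 genes, 5413 had an unadjusted p under 0.05.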

Other observations

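A small set of genes was called in the same direction for MAK683 against both CPI-0209 and vehicle. These were chosen after their values were seen, and both comparisons use the same MAK683 libraries. In all, 19 genes were higher with MAK683 than with CPI-0209 and than with vehicle, and 6 were lower than both. ELN, which encodes elastin, was at 56.9, 69.6 and 84.6 CPM with MAK683, 26.6, 22.6 and 21.9 CPM with CPI-0209, and 13.3, 16.9 and 10.2 CPM with vehicle. Every MAK683 library was at least 2-fold above every other library (log2 fold change 1.57 against CPI-0209, adjusted p = 0.00175, and 2.38 against vehicle, adjusted p = 6e-06). CLEC2B, a ligand of a natural killer cell receptor, was at 13.2, 14.9 and 10.4 CPM with MAK683, 3.9, 5.52 and 4.87 CPM with CPI-0209, and 5.66, 8.85 and 5.08 CPM with vehicle. KRT75, a hair follicle keratin, was at 48.1, 54 and 51.7 CPM with MAK683, 23.2, 29.7 and 16.8 CPM with CPI-0209, and 26.3, 25.2 and 35.4 CPM with vehicle. BARX2, a homeobox factor of epithelium, was at 73.1, 73.3 and 79 CPM with MAK683, 49.4, 55.1 and 47 CPM with CPI-0209, and 32.4, 28.8 and 26.6 CPM with vehicle. STAT4, a cytokine signal transducer, was lower, at 0.866, 0.587 and 0.499 CPM with MAK683, 1.23, 1.55 and 2.39 CPM with CPI-0209, and 1.86, 1.26 and 1.26 CPM with vehicle. Between compounds, the calls of STAT4, BARX2 and KRT75 were each lost without MAK683 library 3 or CPI-0209 library 3, and that of STAT4 also without MAK683 library 2.

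Calls by gene class were as follows. Among 15497 protein-coding genes tested, 825 were higher and 814 lower with MAK683, and among 1182 processed pseudogenes 4 were higher and 99 lower. Among 1440 lincRNA genes 10 were higher and 64 lower, and among 1721 antisense genes 18 were higher and 47 lower. The shares of all genes tested were 4.03% higher and 5.05% lower. Why the classes differ was not tested.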
